A study of Homo sapiens with 17 samples.

Results

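TBX3 and TRIM26 are 2 human genes whose transcripts rose by the largest folds of all genes tested when PC3M cells, an established metastatic subline of the PC-3 prostate cancer line, were heat shocked. They were chosen by that measurement: the rise in heat-shocked cells over unstressed cells and the rise under the proteasome inhibitor MG132, both in cells with a non-targeting siRNA, so those rises are given as a description with no test. They are 2 of 14613 genes listed in the series, and both were listed in both of its tables and passed the filter on low values in both. Messenger RNA was measured by QuantSeq FWD, which reads a tag near the 3' end of each transcript, in 17 libraries of 7 groups.

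The first experiment has 4 groups of 2 libraries. The solvent DMSO or MG132 was given to PC3M cells transfected with a control siRNA without a target (siNT), and cells with an siRNA against JMJD6 (siJMJD6) and HSF1 knockout (KO) cells received MG132, at 2.5 µM for 4 h. The second experiment has 3 groups of 3 libraries: unstressed siNT cells (basal) and heat-shocked cells with either siNT or siJMJD6, the shock being 42 °C for 1 h followed by 2 h of recovery. The siRNAs were given for 72 h in both experiments. Neither unstressed siJMJD6 or KO cells nor heat-shocked KO cells were analysed here, and a difference under stress cannot be told apart from one present before it. The KO libraries carry the letters A and B, and the labels do not say whether these are separate clones or whether the KO cells also received an siRNA. Nothing in the labels says that the numbered libraries came from separate cultures: p-values then measure only how far these libraries spread, which may be technical.

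HSF1 is the transcription factor that binds heat shock elements, inverted repeats of the unit GAA, and switches on chaperone genes when misfolded proteins gather, as they do after heat or when MG132 blocks the proteasome. JMJD6 is a nuclear oxygenase that hydroxylates lysines in splicing factors and chromatin proteins. TBX3 encodes a T-box transcription factor that mainly represses its targets, among them the cell cycle inhibitor genes CDKN2A and CDKN1A, and is known for its part in limb and mammary development and for raised levels in several cancers. TRIM26 encodes an E3 ubiquitin ligase of the tripartite motif (TRIM) family, with a RING, a B-box, a coiled coil and a SPRY domain, known for its work in antiviral signalling and for marking base excision repair glycosylases for degradation. Neither gene encodes a chaperone.

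In the GENCODE v29 annotation of GRCh38, the build the submitters' processing notes name as hg38, TBX3 (ENSG00000135111.15) lies on the minus strand at chr12:114670254-114684164, with 4 annotated transcripts, 2 of them protein coding. TRIM26 (ENSG00000234127.8) lies on the minus strand at chr6:30184455-30213427, in the MHC class I region, with 8 annotated transcripts, 6 of them protein coding. The processed pseudogene PAIP1P1 lies inside TRIM26 on the same strand, at chr6:30186798-30188614, and the sources used here do not give how the authors counted reads that lie over 2 genes. A tag near the 3' end does not tell the transcripts of a gene apart.

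The promoter of TRIM26 is shown because the knockout removes the factor that binds heat shock elements. RefSeq's promoter table (GRCh38.p14) matched 1 of the 2 genes, TRIM26, and its window runs from 250 bases before the transcription start to 50 bases after it. The 250 bases before the start, at chr6:30213407-30213656 on the minus strand, read 5′ to 3′ as follows, with the motifs CCAAT (or ATTGG, its form on the other strand) and TGACGT in capitals.
TRIM26 promoter: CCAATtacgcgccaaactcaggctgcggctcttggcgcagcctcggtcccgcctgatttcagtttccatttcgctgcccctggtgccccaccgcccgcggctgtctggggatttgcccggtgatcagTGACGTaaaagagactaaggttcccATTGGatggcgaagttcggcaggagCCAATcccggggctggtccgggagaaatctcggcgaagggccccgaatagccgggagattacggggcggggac
CCAAT, the box bound by the factor NF-Y, was found 3 times, its first base at positions -250, -98 and -73 from the start, and TGACGT, the core of the element bound by CREB and ATF factors, was found once, at position -123. Among all 35116 promoter windows of the same length, 34.614% held CCAAT and 7.982% held TGACGT on either strand. The 2-unit heat shock element was searched in both arrangements, GAANNTTC and TTCNNGAA, each of which reads the same on both strands. The TRIM26 window held 0 matches to either, and these letters were found in 6.769% and 7.737% of all windows. Of 39 windows belonging to 23 genes of a list of classical HSF1 targets, 15 and 11 held them, and 7 held 3 alternating units, which contain both forms and occurred in 0.49% of all windows. A match is a string of letters and no match says only that these letters are not in this window.

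The values are the authors' normalised counts, with column totals from 1505826 to 1819640. The tables were scaled separately, so each test stays within a table. The labels were checked on the 2 targeted genes. JMJD6 stood at 104 ± 1.41 normalised counts (mean ± SD, n = 3) in basal cells, 224 ± 25.3 (n = 3) in heat-shocked siNT cells and 10.7 ± 3.58 (n = 3) in heat-shocked siJMJD6 cells. Under MG132 it stood at 148 ± 26.1 (n = 2) in siNT, 21.6 ± 7.08 (n = 2) in siJMJD6 and 79.9 ± 0.783 (n = 2) in KO cells. HSF1 stood at 285.2 in KO library A and 175.4 in KO library B, against 1786 ± 139 (n = 2) in siNT cells under MG132 and 2592 ± 532 (n = 2) in siJMJD6 cells. After heat shock it stood at 1199 ± 58.2 in siNT and 1421 ± 53.3 in siJMJD6 cells (n = 3 each). The 3' tag need not lie in the deleted part and does not show whether the HSF1 protein was lost. The part that the levels of HSF1 and JMJD6 themselves have in the differences between genotypes was not tested. Epithelial markers (5 of 5) and mesenchymal markers (4 of 4) reached 10 normalised counts in both tables. Of 6 markers of androgen receptor-positive prostate cells, 1 reached 10 in the table of heat shock and 0 in that of MG132, and of 6 blood and immune markers 0 did in either.

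Heat shock took TBX3 from a low level to a high one. It stood at 48.5, 40.3 and 47.0 normalised counts in the 3 basal libraries, at 442.8, 460.8 and 347.4 in the 3 heat-shocked siNT libraries and at 204.9, 214.5 and 197.0 in the 3 heat-shocked siJMJD6 libraries. The 3 groups did not overlap, and the siJMJD6 libraries lay between the others. The gap between basal and heat-shocked siNT libraries follows from the choice of the genes. How many of all genes tested separate in this way was not counted. The means were 45.3 ± 4.36, 417 ± 60.9 and 205.5 ± 8.77 (SD, n = 3 each), which puts heat-shocked siNT cells at 9.21 times and heat-shocked siJMJD6 cells at 4.54 times the basal level. In bulk libraries, fewer cells that carry a transcript and less of it per cell cannot be told apart.

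TRIM26 took the same order. Its basal libraries gave 37.7, 25.7 and 54.1 normalised counts, the heat-shocked siNT libraries 329.7, 342.5 and 270.5, and the heat-shocked siJMJD6 libraries 174.3, 179.5 and 206.9. Again no library of a group reached into another group, with the same limits as for TBX3. The means were 39.2 ± 14.2, 314 ± 38.4 and 187 ± 17.5 (SD, n = 3 each), or 8.02 and 4.77 times the basal level after heat shock with siNT and siJMJD6. The basal libraries were the most uneven, with a coefficient of variation of 36.3%.

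In the MG132 experiment, TBX3 stood at 34.0 and 36.4 normalised counts in DMSO, 633.0 and 342.7 with siNT and MG132, 80.9 and 159.9 with siJMJD6 and MG132, and 49.5 and 47.5 in the KO pair. The groups did not overlap, but the gap between DMSO and siNT under MG132 follows from the choice of the genes. How many of all genes tested separate like this with 2 libraries a group was not counted. From highest to lowest the order was siNT under MG132, siJMJD6 under MG132, KO under MG132 and siNT in DMSO. The means were 488 ± 205, 120.4 ± 55.9, 48.5 ± 1.45 and 35.2 ± 1.70 (SD, n = 2 each). The first and second of these carried wide replicate error, with coefficients of variation of 42.1% and 46.4%.

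TRIM26 in the same experiment stood at 34.0 and 42.2 normalised counts in DMSO, 189.4 and 345.7 with siNT and MG132, 119.0 and 123.7 with siJMJD6 and MG132, and 42.3 and 46.4 in the KO libraries. The order of the groups was that of TBX3, but KO library A lay next to the higher DMSO library. The means were 268 ± 110.5 (siNT), 121 ± 3.27 (siJMJD6) and 44.4 ± 2.92 (KO) under MG132 and 38.1 ± 5.82 in DMSO (SD, n = 2 each). The 2 siNT libraries under MG132 disagreed in opposite ways for the 2 genes: TBX3 was higher in library 1 and TRIM26 in library 2. The ratio of TBX3 to TRIM26 was therefore 3.34 in library 1 and 0.991 in library 2, whereas it lay between 0.679 and 1.57 in the other 15 libraries. These ratios are of normalised counts of 3' tags, which are not divided by transcript length because a tag is read at one place of each transcript.

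**Figure D1:**
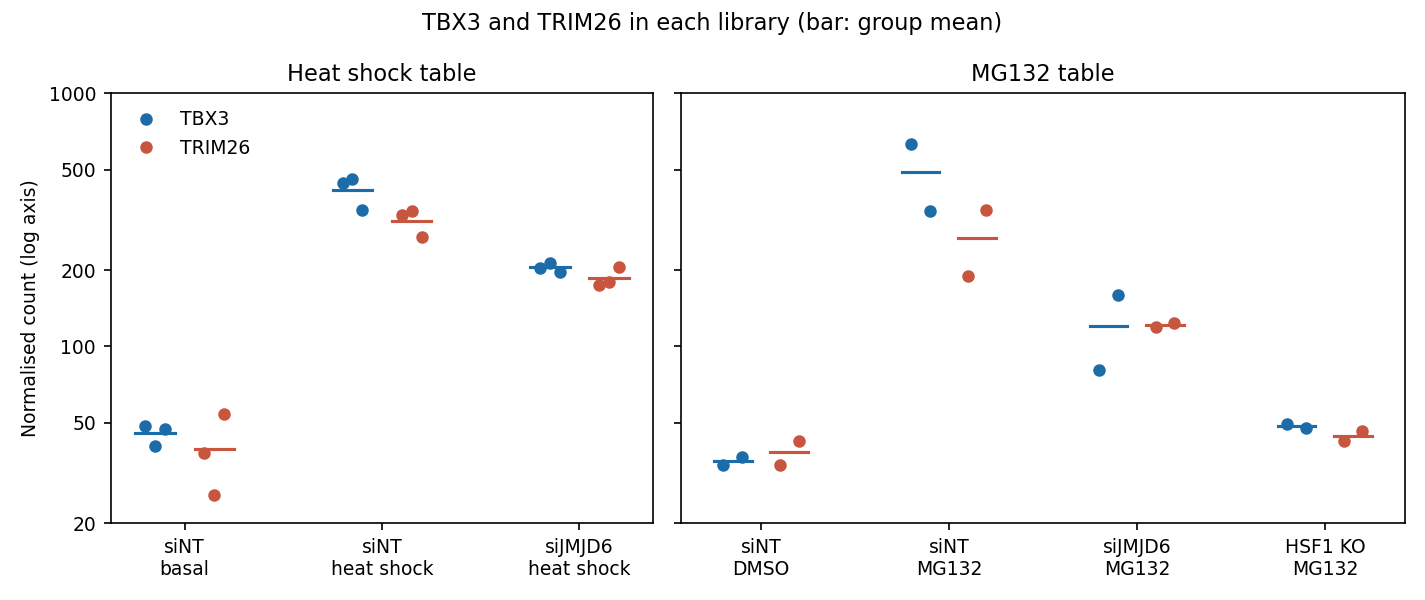
Normalised counts of TBX3 (blue) and TRIM26 (red) on a log axis, 1 point per library, with a bar at each group mean, for the heat shock table (left, n = 3 per group) and the MG132 table (right, n = 2 per group). In both tables the siJMJD6 libraries lie between the stressed siNT libraries and the unstressed ones, and the HSF1 KO libraries lie at 42.3 to 49.5, close to the DMSO libraries at 34.0 to 42.2.

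The stress response that chose the 2 genes was of this size on the log2 scale of the normalised count plus 1, with 1 as the pseudocount. Heat shock against basal gave 3.17 ± 0.13 for TBX3 and 3.03 ± 0.17 for TRIM26 (log2 fold change ± SE), the highest and second highest of 9831 genes tested. In that comparison 2.86% of the genes tested were called higher and 1.23% lower, at an adjusted p under 0.05. MG132 against DMSO gave 3.69 ± 0.37 for TBX3, rank 2 of 9778, and 2.72 ± 0.32 for TRIM26, rank 7. There 0.205% of the genes tested were called higher and 0.0614% lower. The way the genes were picked fixes such ranks.

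Cells with the JMJD6 siRNA held less TBX3 and less TRIM26 after heat shock than siNT cells did. TBX3 was lower by a log2 difference of -1.01 ± 0.13 (95% interval -1.26 to -0.75; limma, adjusted p = 3.94e-08), so that siJMJD6 cells held 49.3% of the siNT level. TRIM26 was lower by -0.74 ± 0.17 (-1.08 to -0.41; limma, adjusted p = 0.000358), or 59.5% of the siNT level. All 3 siJMJD6 libraries lay below all 3 siNT libraries for each gene. The knockdown moved a large part of the transcriptome in this table, with 24.9% of the genes tested called lower and 21.4% called higher, and from the lowest log2 fold change up TBX3 ranked 867 and TRIM26 1473 of 9831. A lower call alone was therefore common. The test shares the siNT heat shock libraries with the comparison that chose the genes and is not independent of that choice.

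Under MG132 the siJMJD6 cells again held less of both transcripts. TBX3 was lower by -2.02 ± 0.37 on the log2 scale (-2.81 to -1.24; limma, adjusted p = 0.00413), at 24.7% of the siNT level. TRIM26 was lower by -1.07 ± 0.32 (-1.77 to -0.37; limma, adjusted p = 0.0444), at 45.4% of it. Here 7.35% of the genes tested were called lower and 6.22% higher, and the siNT MG132 libraries are again those of the choosing comparison. The TBX3 call was lost without siNT MG132 library 1 (-1.58, adjusted p = 0.0614). The TRIM26 call was lost in 7 of 8 fits that left out 1 library, every one but the fit without siNT MG132 library 1, with adjusted p from 0.0558 without DMSO library 2 to 0.302 (log2 difference -0.64) without siNT MG132 library 2.

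HSF1 knockout cells under MG132 held far less of both transcripts than siNT cells under MG132. Against siNT under MG132, TBX3 was lower by -3.24 ± 0.37 (-4.02 to -2.45; limma, adjusted p = 0.000409) and TRIM26 by -2.503 ± 0.32 (-3.20 to -1.81; limma, adjusted p = 0.000972), at 9.94% and 16.6% of the siNT level. Few genes were called in this comparison, 1.00% of those tested lower and 0.276% higher, and from the lowest up TBX3 ranked 33 and TRIM26 84 of 9778. Both genes were called in each of 13 alternatives run, with adjusted p up to 0.0385. This comparison also shares the siNT MG132 libraries with the choice of the genes.

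The comparison of KO with siJMJD6 cells, both under MG132, takes its fold changes from none of the libraries whose rises chose the genes. Those siNT libraries do enter the shared estimate of spread. The genes and the tests were also chosen with earlier results of these data known, so this comparison is not free of that choice. TBX3 was lower in the KO cells by -1.21 ± 0.37 (-1.999 to -0.43; limma, adjusted p = 0.0325) and TRIM26 by -1.43 ± 0.32 (-2.13 to -0.74; limma, adjusted p = 0.00829). Fitted on the KO and siJMJD6 libraries alone, the adjusted p was 0.0454 for TBX3 and 0.0124 for TRIM26. In the comparison 9.69% of the genes tested were called lower and 11.1% higher, and TBX3 ranked 991 and TRIM26 741 of 9778 from the lowest up. The TBX3 call was lost without siJMJD6 MG132 library 2 (-0.73, adjusted p = 0.188), KO library A (-1.24, adjusted p = 0.140) or KO library B (-1.18, adjusted p = 0.150). The TRIM26 call was lost without KO library A (-1.37, adjusted p = 0.0742) or KO library B (-1.50, adjusted p = 0.0530).

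Set against unstressed siNT cells, the stressed siJMJD6 cells still held raised levels. The log2 difference from basal siNT cells was 2.16 ± 0.13 (95% interval 1.91 to 2.42) for TBX3 and 2.28 ± 0.17 (1.95 to 2.62) for TRIM26 after heat shock. Under MG132 the difference from DMSO was 1.67 ± 0.37 (0.88 to 2.45) for TBX3 and 1.65 ± 0.32 (0.96 to 2.35) for TRIM26. In KO cells it was 0.45 ± 0.37 (-0.33 to 1.24) for TBX3 and 0.22 ± 0.32 (-0.48 to 0.92) for TRIM26, and both intervals include 0. A rise within these intervals was not detectable with 2 libraries a group and 1 spread per gene shared by all groups. For TBX3 that spread includes the uneven siNT and siJMJD6 groups under MG132 (coefficients of variation 42.1% and 46.4%). Both KO libraries of TBX3 (49.5 and 47.5) lay above both DMSO libraries (34.0 and 36.4). For TRIM26, KO library A (42.3) lay next to the higher DMSO library (42.2). How many of all genes tested separate in this way was not counted.

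Put as a share of the siNT rise, on the scale of normalised counts, heat-shocked siJMJD6 cells kept 43.1% of the rise of TBX3 (40.8% to 45.5% over the 3 libraries) and 53.7% of that of TRIM26 (49.1% to 61.0%). Under MG132 siJMJD6 cells kept 18.8% of the TBX3 rise, with 10.1% and 27.5% in the 2 libraries. They kept 36.3% of the TRIM26 rise, with 35.3% and 37.3%. KO cells kept 2.94% of the TBX3 rise, with 2.72% and 3.17%, and 2.73% of the TRIM26 rise, with 1.83% and 3.63%. These ranges vary the knockdown or knockout libraries and hold the siNT mean fixed. Taken after the values were seen against siNT MG132 library 1 or 2 alone, the siJMJD6 share was 14.2% or 27.7% for TBX3 and 55.0% or 27.1% for TRIM26, and the KO share 2.23% or 4.33% for TBX3 and 4.14% or 2.04% for TRIM26. Which of the 2 genes kept the larger share thus turned on the siNT library. After heat shock the share lay between 38.6% and 53.0% for TBX3 and between 48.7% and 63.8% for TRIM26 over the 3 siNT libraries. Neither the difference between the 2 genes nor that between heat shock and MG132 was tested.

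**Figure D2:**
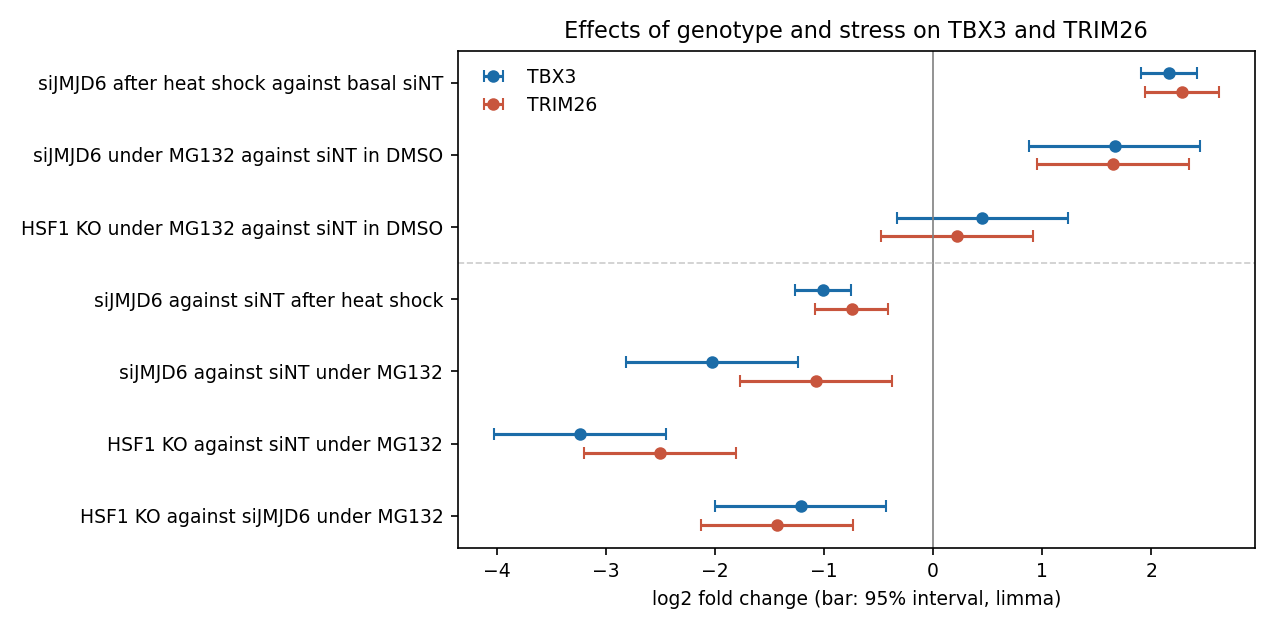
Log2 fold changes of TBX3 (blue) and TRIM26 (red) with 95% intervals from limma, for stressed siJMJD6 and HSF1 KO cells against unstressed siNT cells (above the dashed line) and for the comparisons between genotypes under the same stress (below it). The 2 upper intervals that cross 0 are those of the KO cells, and the intervals of all 4 comparisons between genotypes lie below 0 for both genes.

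Classical HSF1 targets are the known part of this response, and TBX3 and TRIM26 were set beside a list of 26 of them, mostly chaperones and co-chaperones. After heat shock 21 of 26 were called higher and 0 lower, beside 2.86% and 1.23% of all genes tested. The median log2 change was 0.64 against -0.0020 over all genes tested. That TBX3 and TRIM26 rose further than every gene of the list follows from their choice as the highest risers. The targets with the smallest p were HSPA1B and HSPA1A, the stress-inducible HSP70 genes (1.85 and 1.495), and the co-chaperone gene BAG3 (2.03). Under MG132, 9 of 24 tested were called higher and 0 lower (5 without DMSO library 1 or siNT MG132 library 1), with a median of 1.02 against -0.0049. Of all genes tested, 0.205% were called higher there and 0.0614% lower. HSPA1B (3.69) rose further than TBX3, and 3 targets rose further than TRIM26. Others among the smallest p were HSPA1A (3.53) and DNAJB1, the HSP40 partner of HSP70 (2.66).

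In the knockout cells TBX3 and TRIM26 lay within the range of the targets. Against siNT under MG132, 18 of 24 targets were called lower and 0 higher, beside 1.00% and 0.276% of all genes tested. The median was -1.67 against 0.014. The smallest p belonged to HSPA1B (-5.12), HSPA1A (-5.60) and the HSP110 gene HSPH1 (-4.46), and 4 of 24 lay below TBX3 and 7 below TRIM26. The count of 18 was 10 and 9 without siNT MG132 library 1 and 2, and 11 and 9 without KO library A and B. As a share of the siNT rise, the 9 targets called higher under MG132 kept a median of -5.07%, and 6 of the 9 kept less than TBX3 and 6 less than TRIM26.

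With the JMJD6 siRNA, too, the 2 genes lay inside the spread of the targets. In siJMJD6 against siNT under MG132, 7.35% of all genes tested were called lower and 6.22% higher. After heat shock these shares were 24.9% and 21.4%, and in KO against siJMJD6 cells 9.69% and 11.1%. Under MG132, 10 of 24 targets were called lower and 0 higher (6 without siNT MG132 library 1), with a median of -0.74 against -0.050, with the smallest p in HSP90AA1, the inducible HSP90 (-2.90), DNAJB1 (-2.18) and HSPA1B (-2.38), and 5 of 24 lay below TBX3 and 9 below TRIM26. After heat shock 17 of 26 were called lower and 3 higher, with a median of -0.495 against -0.034, with the smallest p in HSP90AA1 (-2.41), the mitochondrial HSP60 gene HSPD1 (-1.24) and STIP1, the adaptor between HSP70 and HSP90 (-0.92), and 3 of 26 lay below TBX3 and 5 below TRIM26. In siJMJD6 cells the 21 targets called higher after heat shock kept a median of 48.1% of the siNT rise. Their shares ran from -150.4% (STIP1) to 160.8% (IER5, an immediate-early response gene), and 9 kept less than TBX3 and 14 less than TRIM26. The 9 targets called higher under MG132 kept a median of 12.1% in siJMJD6 cells, from -33.2% (HSP90AA1) to 116.4% (DEDD2). Of these 9, 6 kept less than TBX3 and 7 less than TRIM26. In KO against siJMJD6 cells 12 of 24 were called lower and 1 higher (13 in all, 8 without KO library B), with a median of -1.02 against 0.051, with the smallest p in HSPB1, a small heat shock protein gene (-2.87), HSPH1 (-3.54) and HSPA1B (-2.74), and 10 lay below TBX3 and 7 below TRIM26.

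TRIM26 was also set beside its family. Of 43 other TRIM genes listed, 28 passed the filter for heat shock and 31 for MG132. Of all genes tested, heat shock called 2.86% higher and 1.23% lower, and MG132 0.205% and 0.0614%. KO against siNT called 0.276% higher and 1.00% lower. Heat shock raised 2 of 28, with a median of -0.015 against -0.0020: TRIM16 by 2.17 ± 0.25 (limma, adjusted p = 9.94e-08), whose reads may be shared with the near copy TRIM16L, and TRIM56 by 0.62 ± 0.18 (limma, adjusted p = 0.0420; lost in 6 of 9 fits that left out 1 library, up to 0.221 without siNT heat shock library 2). MG132 called 0 of 31 by limma, with 3 higher and 0 lower at an unadjusted p under 0.05 and the smallest p in TRIM2 (1.27 ± 0.42) and TRIM16 (1.52 ± 0.66). HSF1 KO against siNT called 0 of 31 by limma, with 1 higher and 5 lower at an unadjusted p under 0.05, nearest the threshold TRIM56 (-1.53 ± 0.37, adjusted p = 0.0683) and TRIM9 (-1.35 ± 0.38, adjusted p = 0.126).

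In siJMJD6 against siNT cells under MG132, where TRIM26 was lower, 0 of 31 were called higher and 4 lower, beside 6.22% and 7.35% of all genes tested, among them TRIM33, a nuclear protein of TGF-beta signalling (-1.92 ± 0.32), TRIM9 (-1.86 ± 0.38; adjusted p = 0.0589 without siNT MG132 library 1) and TRIM44 (-0.97 ± 0.25; lost in 3 of 8 fits without 1 library, up to 0.128 without siNT MG132 library 1). After heat shock the siRNA gave 5 higher and 5 lower of 28, beside 21.4% and 24.9% of all genes tested, among them TRIM33 (-1.17), TRIM9 (-1.46) and TRIM25, a ligase of antiviral RNA sensing (0.68). KO against siJMJD6 gave 3 higher and 1 lower of 31, beside 11.1% and 9.69% of all genes tested, among them TRIM33 (1.82 ± 0.32), TRIM11 (1.23 ± 0.25; adjusted p = 0.0621 without KO library A) and TRIM4 (1.37 ± 0.38; lost in 3 of 8 fits without 1 library, up to 0.116 without KO library B). TRIM33 thus lay lower in siJMJD6 cells than in siNT and KO cells under MG132, whereas TRIM26 in siJMJD6 cells lay between them.

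TBX3 had few relatives to be set beside. Of 6 other T-box genes listed, 3 were tested, and 0 of 3 were called by limma in any of the 6 comparisons; at an unadjusted p under 0.05, 1 was lower in each comparison but MG132 against DMSO, which had 0. TBX2, the nearest relative of TBX3 and also a repressor, gave -0.57 ± 0.27 after heat shock and 0.70 under MG132. TBX1 gave 0.10 after heat shock, which was -0.038 without basal library 2, and 0.42 under MG132, and MGA, a large T-box protein, gave -1.25 (adjusted p = 0.199) in KO against siNT cells.

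Of the reported targets and partners of TBX3, 12 were tested. Heat shock called 0 of 12 by limma (1 lower at an unadjusted p under 0.05; smallest p in TBX2 at -0.57 and the RNA-binding partner HNRNPC at 0.17), and MG132 called 0 of 12 (1 higher; CDKN1A at 1.21 ± 0.39 and CDH1, the E-cadherin gene, at 0.87 ± 0.48). KO against siNT called 0 of 12 by limma, also without adjustment of p, with the WNT co-activators PYGO2 at 0.54 and BCL9 at 0.62. CDKN1A, the p21 gene that TBX3 is known to repress, was the 1 call in siJMJD6 against siNT under MG132, higher by 1.56 ± 0.39 (limma, adjusted p = 0.0206), lost without siNT MG132 library 1 (adjusted p = 0.152) or siJMJD6 MG132 library 1 (adjusted p = 0.0736). In KO against siJMJD6 cells CDKN1A was lower by -1.64 ± 0.39 (limma, adjusted p = 0.0103; 0.119 without KO library A), and HDAC3, a histone deacetylase partner, was higher by 1.11 ± 0.37, a call lost in 7 of 8 fits without 1 library, up to 0.314 without siJMJD6 MG132 library 2. The 1 higher and 0 lower of 12 in siJMJD6 against siNT under MG132 stood beside 6.22% and 7.35% of all genes tested. In KO against siJMJD6 cells 1 higher and 1 lower of 12 stood beside 11.1% and 9.69%. Such counts are near the background. After heat shock the siJMJD6 cells had 1 of the 12 higher and 4 lower, beside 21.4% and 24.9% of all genes tested, which is also near the background. The smallest p belonged to the deacetylase genes HDAC3 (-1.71), HDAC2 (-1.06) and HDAC1 (-0.80).

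Of the WNT, TGF-beta and AKT genes reported to act upstream of TBX3, 12 were tested. After heat shock (SMAD3 -0.47, JUNB -0.28), under MG132 (TGFBR1 -1.65, JUNB -1.14) and in KO against siNT cells (JUNB 0.82), limma called 0 of 12, with 3 lower, 3 lower and 1 higher at an unadjusted p under 0.05. In siJMJD6 cells under MG132 the receptor gene TGFBR1 (1.55) and its signal carrier SMAD3 (1.24) were called higher, but these calls were lost in 7 and 6 of 8 fits without 1 library, with adjusted p up to 0.280 without siNT MG132 library 1 and 0.159 without siNT MG132 library 2. These 2 higher and 0 lower of 12 stood beside 6.22% and 7.35% of all genes tested. After heat shock 2 of 12 were higher and 4 lower with the siRNA, near the 21.4% and 24.9% of all genes tested. There the smallest p belonged to TGFBR2 (-1.48), JUNB (0.58) and AKT1 (-0.69). KO against siJMJD6 called AKT1 alone, higher by 1.35, beside 11.1% of all genes tested called higher and 9.69% lower. That call was lost without siJMJD6 MG132 library 1 (0.85), KO library A (1.33) or KO library B (1.37).

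The reported substrates and partners of TRIM26 gave no call: of 6 tested, 0 passed by limma in any of the 6 comparisons. At an unadjusted p under 0.05 the siJMJD6 comparison after heat shock had 3 lower, heat shock against basal had 1 lower, and the other 4 comparisons had 0. The smallest p belonged to the antiviral kinase gene TBK1 (-0.77, adjusted p = 0.0640) and its substrate IRF3 (-0.48, adjusted p = 0.0671) in siJMJD6 against siNT cells after heat shock, and to TAB1, an adaptor of the kinase TAK1 (-0.69), and ZEB1, a factor of epithelial-mesenchymal transition (0.42), for heat shock itself. Under MG132 they were IRF3 (0.54) and TBK1 (0.84) against DMSO, NTHL1, a repair glycosylase gene (0.43), and TBK1 (-0.88) for siJMJD6 against siNT, TAB1 (0.58) and the lipid peroxidase gene GPX4 (-0.14) for KO against siNT, and GPX4 (-0.40) and TBK1 (1.01) for KO against siJMJD6.

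Few of the genes around the 2 loci were listed, and most of those listed had low values. None of the 12 annotated neighbours of TBX3, 6 on each side, was listed in either table. Of the 12 neighbours of TRIM26, 4 were listed: TRIM31, HCG17, HLA-L and HCG18. The first of these stayed at 0 to 5.23 normalised counts in the heat shock experiment and 0 to 1.90 in that with MG132. HCG17, a long non-coding RNA, gave 0 to 9.86 and 0 to 7.59, and the pseudogene HLA-L 0 to 4.10 and 0 to 9.67. In both experiments the highest values of TRIM31 and HCG17 were those of siJMJD6 libraries, and the highest of HLA-L that of a stressed siNT library. HCG17 stood at 3.17, 5.26 and 9.86 in heat-shocked siJMJD6 libraries and at 4.21 and 7.59 in those under MG132. All values of these genes lay below 10 normalised counts, and differences between groups were not tested.

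HCG18, a non-coding RNA annotated as antisense on the minus strand at chr6:30287397-30327150, was the 1 neighbour tested. It stood at 26.0, 30.02 and 35.9 normalised counts in basal libraries, 22.2, 22.0 and 18.6 in heat-shocked siNT libraries and 45.3, 42.4 and 31.4 in heat-shocked siJMJD6 libraries. Its log2 difference was -0.52 ± 0.24 after heat shock (limma, adjusted p = 0.280) and 0.88 ± 0.24 in siJMJD6 against siNT cells (limma, adjusted p = 0.00287). TRIM26 differed in the other direction in both of these comparisons. In the MG132 table HCG18 was not called in any comparison, and its log2 differences had the sign of those of TRIM26: 0.21 for MG132 against DMSO, -0.58 for siJMJD6 against siNT, -0.83 for KO against siNT and -0.25 for KO against siJMJD6.

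The genes whose values followed TBX3 and TRIM26 most closely were ranked over all 17 libraries, on log2 values centred on the mean of each table, among 5117 other genes of sufficient level. TRIM26 itself was closest to TBX3 (Pearson r = 0.943), followed by PLAUR (0.941), NFATC3 (0.914), DNAJA1 (0.912) and BRF1 (0.899). Closest to TRIM26 were DFNB31 (0.945), TBX3 (0.943), PLAUR (0.920), BRF1 (0.914) and DNAJA1 (0.901). These coefficients are a description: all genes were read in the same libraries, and the groups rather than the single libraries set most of the range. TBX3 and TRIM26 were both chosen by their rise in the stressed siNT libraries, so their high coefficient follows in part from that choice. A gene of sufficient level had a group mean of at least 50 in each table, which stress could supply. For DFNB31 in the MG132 table only siNT cells under MG132 reached it (51.7, against 11.9 in DMSO, 38.0 in siJMJD6 and 10.9 in KO cells). PLAUR, NFATC3, DNAJA1 and BRF1 had means above 50 in every group. DNAJA1, an HSP40 co-chaperone, is also on the list of HSF1 targets.

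PLAUR, the receptor of urokinase, stood at 192 ± 9.68 normalised counts in basal cells, 644 ± 59.8 in heat-shocked siNT and 423 ± 6.24 in heat-shocked siJMJD6 cells (SD, n = 3 each). In the MG132 table it stood at 154 ± 53.3 in DMSO, 457 ± 54.6 in siNT, 285 ± 88.6 in siJMJD6 and 146 ± 69.0 in KO cells under MG132 (SD, n = 2 each). That is the order of TBX3 and TRIM26 in the heat shock table. In the other table the KO and DMSO libraries of PLAUR overlapped. BRF1, a subunit of the RNA polymerase III initiation factor, rose from 89.5 ± 2.93 to 211 ± 19.97 after heat shock and stood at 169 ± 14.4 with the JMJD6 siRNA (n = 3 each). DFNB31, which encodes the scaffold protein whirlin, stood at 16.7 ± 5.09, 64.9 ± 17.2 and 64.1 ± 7.40 in the same 3 groups. NFATC3, a calcium-regulated transcription factor, stood at 170 ± 15.1, 335 ± 41.1 and 330 ± 4.62. For these last 2 genes the siNT and siJMJD6 libraries after heat shock overlapped, while those of TBX3, TRIM26, PLAUR, BRF1 and DNAJA1 did not. How many of all genes tested separate in this way was not counted, but 24.9% were called lower there and 21.4% higher. Under MG132 the siJMJD6 libraries of NFATC3 and DFNB31 lay below the siNT libraries, as for TBX3 and TRIM26. NFATC3 stood at 154 and 227 against 302 and 329, and DFNB31 at 43.5 and 32.6 against 49.4 and 54.0.

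**Figure D3:**
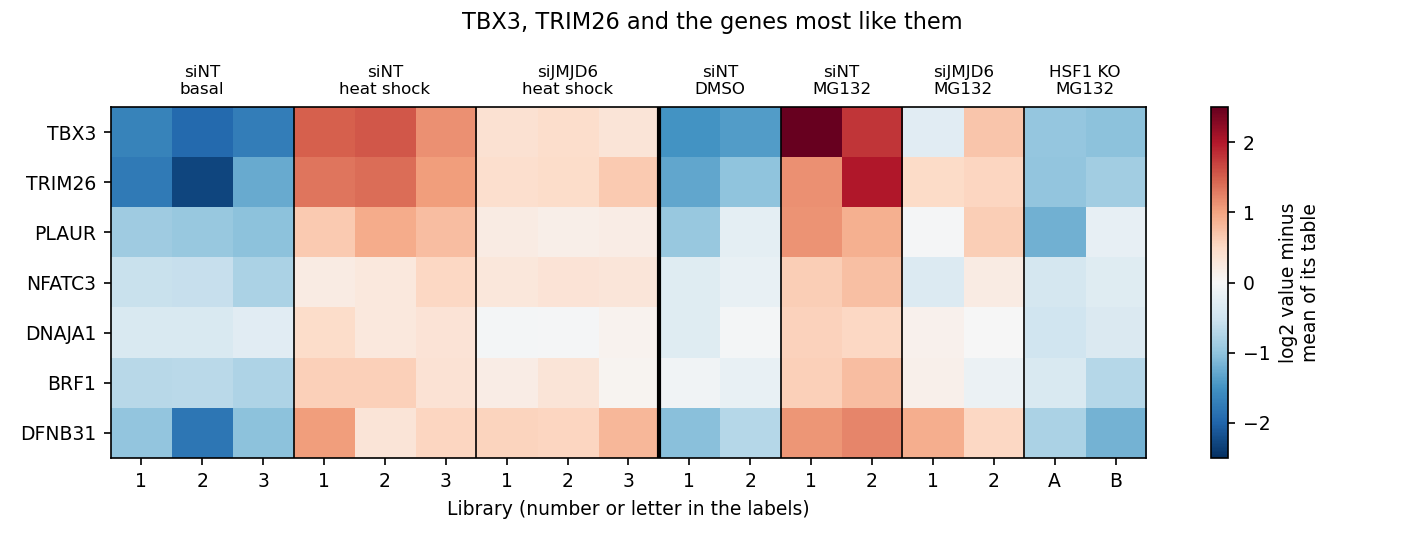
Log2 normalised counts of TBX3, TRIM26 and the 5 other genes most like them, each minus its mean over its table, in 17 libraries grouped by condition, with the heat shock table to the left of the thick line and the MG132 table to the right. Red is above and blue below the table's mean. The colour scale is capped, and TBX3 in siNT MG132 library 1 (2.68) lies beyond its end. TBX3 and TRIM26 span the widest range, which follows from their choice as the highest risers. In NFATC3 and DFNB31 the siNT and siJMJD6 heat shock libraries have similar shades.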

How the data were processed

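Per the submitters' processing notes, the authors' pipeline names FastQC 0.11.2, STAR 2.6.0, HTSeq and the build hg38; the sources used here give neither their roles nor the annotation or scaling. The signal values are normalised counts, deposited by the authors as 1 table per experiment (8 and 9 libraries), and all 17 columns matched a label, leaving 0 unmatched columns. In 9 of 17 libraries at least 90% of low values lay within 0.1 of a whole multiple of 0.93 to 1.065 normalised counts. In the others the share was 22.8% to 84.3%, so reads could not be recovered throughout, depth is not exactly known and no count model was used.

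limma 3.58.1 (R 4.3.3) was fitted to log2 values (pseudocount 1) with a mean-variance trend and 1 spread per gene over all groups of a table. Genes with at least 10 normalised counts in 2 (MG132) or 3 (heat shock) libraries were tested, 9778 and 9831. P-values were adjusted by Benjamini-Hochberg over all of them and called under 0.05, for 4 comparisons of genotype and, for genes other than TBX3 and TRIM26, 2 of stress. The scripts were tested on simulated data.

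TBX3, TRIM26, the gene lists and the tests were chosen with earlier results of these data known. Named genes are the 2 genes, JMJD6 and HSF1, from each list the called members of smallest adjusted p, at most 3 (2 with the smallest p where none was called), 5 genes most like each of the 2 by Pearson r among those with a group mean of at least 50 in each table, and 6 neighbours on each side. TRIM genes were found by symbol, and other lists were written from general knowledge; 1 value the rule names is not reported here. Alternatives were a pseudocount of 10, no filter, 2 rescalings, the compared groups alone, a replicate block and leaving out each library.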

Additional observations from a re-analysis of the deposited data

How the results depend on the processing

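The direction of TBX3 and TRIM26 was the same in every alternative of all 6 comparisons, and after heat shock both were called lower in siJMJD6 cells in all 15 (adjusted p up to 7.17e-06 and 0.0059). TRIM26 in siJMJD6 against siNT under MG132 missed the threshold without a filter (-1.07, adjusted p = 0.0872), after TMM rescaling (-1.03, adjusted p = 0.0501) and with the compared groups alone (-1.07, adjusted p = 0.0804), and ranged from -1.50 to -0.64 without 1 library. TBX3 there ranged from -2.51 to -1.54. In KO against siJMJD6 TBX3 missed it without a filter (-1.21, adjusted p = 0.0904) and ranged from -1.70 to -0.73 without 1 library, and TRIM26 from -1.50 to -1.37. With a pseudocount of 10, TBX3 after heat shock was 2.94. With 1 library left in a group, that library is assumed to vary like the others.

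Genes called in siJMJD6 against siNT under MG132 numbered 1327, 1410 with a pseudocount of 10, 675 without a filter, 687 with the compared groups alone and 351 to 1268 without 1 library. In KO against siNT they numbered 125, 29 without a filter, 213 with the compared groups alone and 43 to 185. In KO against siJMJD6 they numbered 2033 and 654 to 2019, and in MG132 against DMSO 26, 6 without a filter and 10 to 31. HSF1 targets called without a filter numbered 8 in KO against siNT and 3 in MG132 against DMSO. Neither rescaling moved the median of all genes by over 0.1.

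The siNT and siJMJD6 labels of the MG132 experiment carry X1 or X2, a tag shared across groups that the labels do not explain. Whether it marks a shared source is not known. Replicate numbers were not taken as pairs in the main fits, since not every same-numbered correlation was over 0.1. For heat shock, same-numbered libraries deviated together with r from -0.035 to 0.094, and a library correlated best with its own number in 7 of 18 cases. For MG132 r was 0.368 between DMSO and siNT under MG132, 0.318 between DMSO and siJMJD6, and 0.045 between siNT and siJMJD6 under MG132, all above 0. The main fits of that experiment therefore leave aside a pairing that may exist. With a replicate block the calls were 1811 (1327 without it) in siJMJD6 against siNT under MG132, 41 (26 without it) in MG132 against DMSO and 4589 (4557 without it) in siJMJD6 against siNT after heat shock, and TBX3 and TRIM26 in siJMJD6 against siNT under MG132 had adjusted p = 0.00103 and 0.0165. The KO libraries, which carry letters, were left out of that fit.

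For 82 results on other named genes, 1152 values were computed under alternatives, of which 54 lost a call, 6 gained one and 4, none of them called, changed sign: without 1 library, GPX4 in KO against siNT ranged from -0.49 to 0.21 (above 0 without siNT MG132 library 1, at 0.040, or KO library B), TBX1 after heat shock from -0.038 (without basal library 2) to 0.30, and ZEB1 after heat shock from -0.020 (without basal library 3) to 0.68. The causes of these changes were not tested.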
